A study of Mus musculus and Homo sapiens with 28 samples.

Results

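The cytosolic ribosomal protein genes were followed in a human renal carcinoma line given an inhibitor of the kinase CHK1 and in mouse renal tumours given an inhibitor of its upstream kinase ATR. Members were chosen by gene name alone: RPL or RPS followed by digits and an optional one-letter suffix, together with RPLP0, RPLP1, RPLP2 and RPSA, leaving out pseudogenes, RPS6K kinases and antisense genes, and in mouse keeping protein-coding genes. This gave 82 of the 56269 rows of the human table, 49 of the large subunit and 33 of the small subunit, of which 81 were tested because RPL10L had a count of 0 in every library. In mouse it gave 80 of 46078 rows, 49 of the large and 31 of the small subunit, of which 78 were tested among 15916 genes. The mouse members that were not tested are Rpl10l, listed at 0 throughout, and Rpl24, whose mean of 2.78 lay below the filter of 3 on the regularised log scale (rlog). Ribosomal protein genes that the naming rule does not take, such as FAU and RACK1, are given by value and not counted.

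786-O, an established clear cell renal carcinoma line labelled WT, received a CHK1 inhibitor at 25 nM for 48 h (n = 2) or no treatment (n = 2), in 2 separate experiments. The labels name the compound LY2606368 and the treatment protocol names it LY2603618, so it is called the CHK1 inhibitor here. The mouse libraries came from subcutaneous tumours of Renca, a mouse renal carcinoma line implanted in Matrigel, and all mouse groups share that host and implant. They were labelled SETD2 KD and VE822 (n = 5), SETD2 KD and untreated (n = 6), WT and VE822 (n = 6) or WT and untreated (n = 7). VE822 inhibits ATR and was dosed at 60 mg/kg by gavage on 5 days per week. SETD2 is the histone methyltransferase that marks transcribed gene bodies. The labels do not say how the knockdown was made, from how many clones, in which mouse strain, or whether each library is a separate animal or culture, so a p-value here speaks of variation among the libraries and may be technical.

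A cytosolic ribosome consists of a small subunit, which reads the messenger RNA, and a large subunit, which joins amino acids, and each protein is present in about equal number, most of them as a single copy per ribosome. The messenger RNAs of these proteins commonly begin with a cytosine followed by a run of pyrimidines, the terminal oligopyrimidine (TOP) tract, through which growth signals acting on mTORC1 and LARP1 control their translation and stability. MYC and RNA polymerase I set the supply of ribosomal RNA alongside them, and ribosomal proteins left without RNA, RPL5 and RPL11 above all, bind MDM2 and stabilise p53.

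The starts of the mouse genes show which members carry such a tract where RefSeq (GRCm38.p6) places their first base. Each window below holds the 15 bases before and the 15 bases from the annotated start, 5′ to 3′ on the gene's own strand. Capitals mark a run made of C and then at least 4 pyrimidines that begins within 5 bases of the start. A pyrimidine run that begins further upstream is in capitals only from its first C inside that limit, as in Rpl14, and the run of Rpl27a continues past its window. Rps6 and Rps27 show the usual form, Rpl14, Rpl27a, Rps2 and Rps26 are members that changed with VE822, Rps15 and Rpl37 changed and hold no such run at the RefSeq start, and Rpl3l, Rpl39l and Rps27l are paralogs. Windows span chr4:86857353-86857382 (minus strand) for Rps6, chr3:90213634-90213663 (minus) for Rps27, chr9:120571502-120571531 (plus) for Rpl14, chr7:109519180-109519209 (plus) for Rpl27a, chr17:24720048-24720077 (plus) for Rps2 and chr10:128626492-128626521 (minus) for Rps26. They span chr10:80292416-80292445 (plus) for Rps15, chr15:5116598-5116627 (plus) for Rpl37, chr17:24727811-24727840 (plus) for Rpl3l, chr16:10170213-10170242 (plus) for Rpl39l and chr9:66946071-66946100 (plus) for Rps27l.
Rps6: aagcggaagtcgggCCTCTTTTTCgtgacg
Rps27: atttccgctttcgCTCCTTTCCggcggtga
Rpl14: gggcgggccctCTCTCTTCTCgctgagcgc
Rpl27a: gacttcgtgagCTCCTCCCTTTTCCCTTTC
Rps2: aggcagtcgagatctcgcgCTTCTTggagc
Rps26: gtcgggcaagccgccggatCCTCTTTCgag
Rps15: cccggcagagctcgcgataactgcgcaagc
Rpl37: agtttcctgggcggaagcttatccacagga
Rpl3l: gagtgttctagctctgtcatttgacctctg
Rpl39l: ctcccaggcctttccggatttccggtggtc
Rps27l: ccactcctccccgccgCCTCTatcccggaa
Of the 80 mouse members, 60 matched a RefSeq entry, with 72 annotated starts. A run that begins exactly at the annotated first base was present at 13 of these 72 starts (18.1%) and at 823 of all 32851 starts in the table (2.51%). Within 5 bases of the start it was present at 30 member starts (41.7%) and at 6027 of all starts (18.3%). Only the gene's strand was searched, and a match describes these letters and not a tested TOP tract. The gene starts that GENCODE gives for Rps15 (80292453) and Rpl37 (5116645) lie past the end of these windows, so no match there holds for the RefSeq start alone.

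The members were among the most abundant transcripts of both systems. By mean level, 71 of the 81 human members and 70 of the 78 mouse members lay in the top 5% of the genes tested. In untreated WT tumours, level per length (rlog minus log2 of the exon length in kilobases, mean ± SD, n = 7) was 12.30 ± 0.0853 for Rpl3 and 6.22 ± 0.138 for its striated-muscle paralog Rpl3l. On the same per-length scale it was 11.39 ± 0.0857 for Rpl39 and 3.46 ± 0.119 for its testis-enriched paralog Rpl39l, and 13.21 ± 0.111 for Rps27 and 11.56 ± 0.0641 for the p53-responsive paralog Rps27l.

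The human libraries held 21447859 and 20834400 counts with the CHK1 inhibitor and 23956007 and 23492424 counts without treatment, and the mouse depth is unknown because only rlog values were used. The libraries labelled 786-O expressed KRT8, VIM, KRT18 and PAX8 at over 230 CPM (counts scaled to a common library total) in each library, with CA9 below 0.3 CPM. The marker list for 786-O also held PAX2 and EPCAM, whose values are not given, so these genes are only part of that list. Setd2, which checks the knockdown labels, ranged over 9.42 to 9.96 rlog (median 9.75) in SETD2 KD VE822, 10.70 to 10.88 (10.82) in SETD2 KD untreated, 9.58 to 10.28 (10.10) in WT VE822 and 10.74 to 10.91 (10.79) in WT untreated libraries. Without treatment the libraries labelled SETD2 KD and WT therefore overlapped in Setd2 and differed by -0.02 (log2), so the mouse groups are named by their labels only. Setd2 was lower with VE822 under both labels, by a log2 difference of -1.09 (limma adjusted p = 1.08e-07) in SETD2 KD and -0.80 (limma adjusted p = 1.19e-06) in WT libraries.

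In 786-O cells, ribosomal protein genes as a group stood higher with the CHK1 inhibitor than without. By limma with Benjamini-Hochberg adjustment over all genes tested, 42 of the 81 members rose and 0 fell (51.9% of members), where 7.05% of all genes tested rose and 6.16% fell. The median log2 difference was 0.39 over the members, against 0.08 over all genes. Both subunits took part, with 25 of 48 large-subunit genes and 17 of 33 small-subunit genes past the threshold and medians of 0.40 and 0.37. Among other genes with a mean of at least 10 on the deposited log2 scale (4897 genes), 18.7% rose, 14.9% fell and the median was 0.04. That cut lies well below the members' median level of 13.8, so these genes are not matched to the members in level.

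The members shared a direction more than a size, with 79 of 81 above 0 and differences from -0.28 to 0.85. Differences reached 0.2 (log2) or more for 73 members, 0.3 for 63, 0.5 for 22 and 0.7 for 4. In 78 of the 81 members both treated libraries lay above both untreated libraries and in 0 both lay below, whereas over all genes the libraries separated this way in 29.1% upward and 23.3% downward. Experiment 1 gave a treated value above its untreated partner for 81 of 81 members (median difference 0.43) and experiment 2 for 78 of 81 (0.35). The 81 members include RPL3L, RPL39L and RPS10L, which had at most 3 counts in any library. The lowest difference, -0.28, was that of RPL39L. The share of all counts that fell on ribosomal protein genes was 6.31% (95% Wilson interval 6.30 to 6.32) and 5.93% (5.92 to 5.94) in the treated libraries, against 4.75% (4.74 to 4.75) and 4.80% (4.79 to 4.81) in the untreated ones. These intervals cover counting error only. The share on the 1008 rows named as ribosomal protein pseudogenes, which can take reads from their parent genes, was 0.0906% and 0.0842% in treated libraries and 0.0647% and 0.0642% in untreated libraries.

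**Figure D1:**
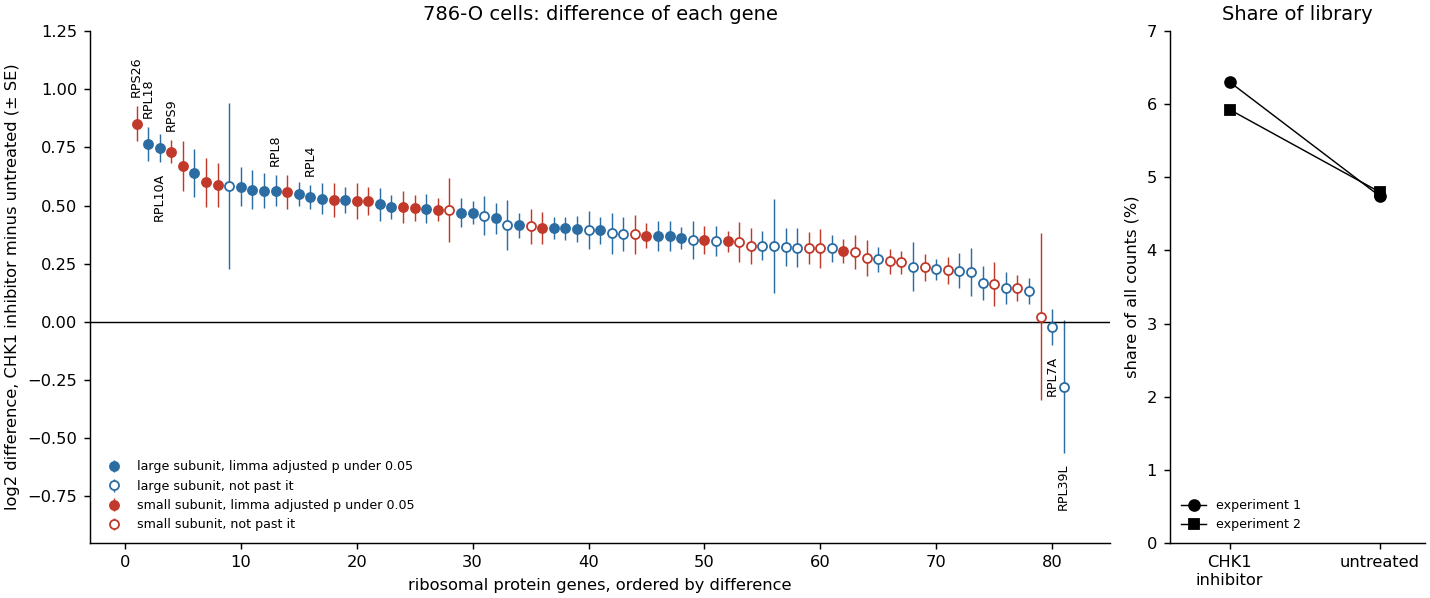
Left, log2 difference (CHK1 inhibitor minus untreated, with its standard error) of each ribosomal protein gene tested in 786-O cells, ordered by size, filled where past the limma threshold; right, percent of all counts on these genes in each library, with the treated libraries left of the untreated ones. Of the 81 genes, 79 lie above 0, and the share is 6.31% and 5.93% with the inhibitor against 4.75% and 4.80% without.

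The largest rise was that of RPS26, a protein at the messenger RNA exit of the small subunit. RPS26 had 261.1 and 236.1 CPM with the CHK1 inhibitor and 142.2 and 143.2 CPM without, a log2 difference of 0.85 ± 0.0753 (SE; limma adjusted p = 0.0239). RPL18, a large-subunit protein, had 976.3 and 905 CPM with the inhibitor and 587.3 and 561.4 CPM without, a difference of 0.77 ± 0.0714 (limma adjusted p = 0.0246). For both genes the treated pair lay well clear of the untreated pair and the partners within a group lay close together. RPL10A, a large-subunit protein of the stalk through which tRNAs leave, had 774.2 and 790.5 CPM with the inhibitor against 492.7 and 474.8 CPM without (0.75 ± 0.0594, limma adjusted p = 0.0232). RPS9, a small-subunit protein needed early in assembly, had 681.6 and 669.1 CPM against 419.6 and 424.5 CPM (0.73 ± 0.0494, limma adjusted p = 0.0232). RPS13 was the fifth by size, with 493.6 and 443.9 CPM against 324.2 and 287.1 CPM (0.67 ± 0.108, limma adjusted p = 0.0415). These 5 genes belong to both subunits, and in each of them the lower treated library exceeded the higher untreated one. They were chosen as the largest rises past the threshold, so this separation largely follows from the choice. Over all genes 29.1% separated upward.

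RPL8 and RPL4 moved less on the log2 scale than these 5 genes but were more abundant. RPL8, which lies beside the peptidyl transferase centre of the large subunit, had 2779.6 and 2546 CPM with the inhibitor and 1887.5 and 1851.9 CPM without (0.56 ± 0.0668, limma adjusted p = 0.0283). RPL4, whose loop reaches into the peptide exit tunnel, had 1749.5 and 1817 CPM against 1242.2 and 1310.1 CPM (0.54 ± 0.0513, limma adjusted p = 0.0246). Neither gene overlapped between the groups, which holds for 78 of the 81 members and, upward, for 29.1% of all genes.

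The P stalk recruits translation factors to the large subunit. Its anchor RPLP0 had 1926.5 and 1856.7 CPM with the inhibitor and 1474.9 and 1497.6 CPM without, and rose by 0.40 ± 0.0478 (limma adjusted p = 0.0284). Its acidic partners did not pass the threshold: RPLP1 differed by 0.32 ± 0.0840 (limma adjusted p = 0.0911) and RPLP2 by 0.42 ± 0.108 (limma adjusted p = 0.0871). RPLP2 passed once the experiment was taken as a block (limma adjusted p = 0.0227). The groups of all 3 stalk genes were separate, as in 78 of the 81 members, and over all genes 29.1% separated upward.

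RPL5 and RPL11, the pair that binds MDM2, both rose. RPL5 had 1144.2 and 1056.6 CPM with the inhibitor against 815.4 and 814.2 CPM without (0.49 ± 0.0630, limma adjusted p = 0.0312). RPL11 had 958.8 and 904.9 CPM against 709 and 688.9 CPM (0.47 ± 0.0620, limma adjusted p = 0.0317). RPS6, the substrate of the S6 kinases, rose by 0.35 ± 0.0472 (limma adjusted p = 0.0331). RPS27A, which is made as a fusion with ubiquitin, rose by 0.48 ± 0.0491 (limma adjusted p = 0.0254).

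**Figure D2:**
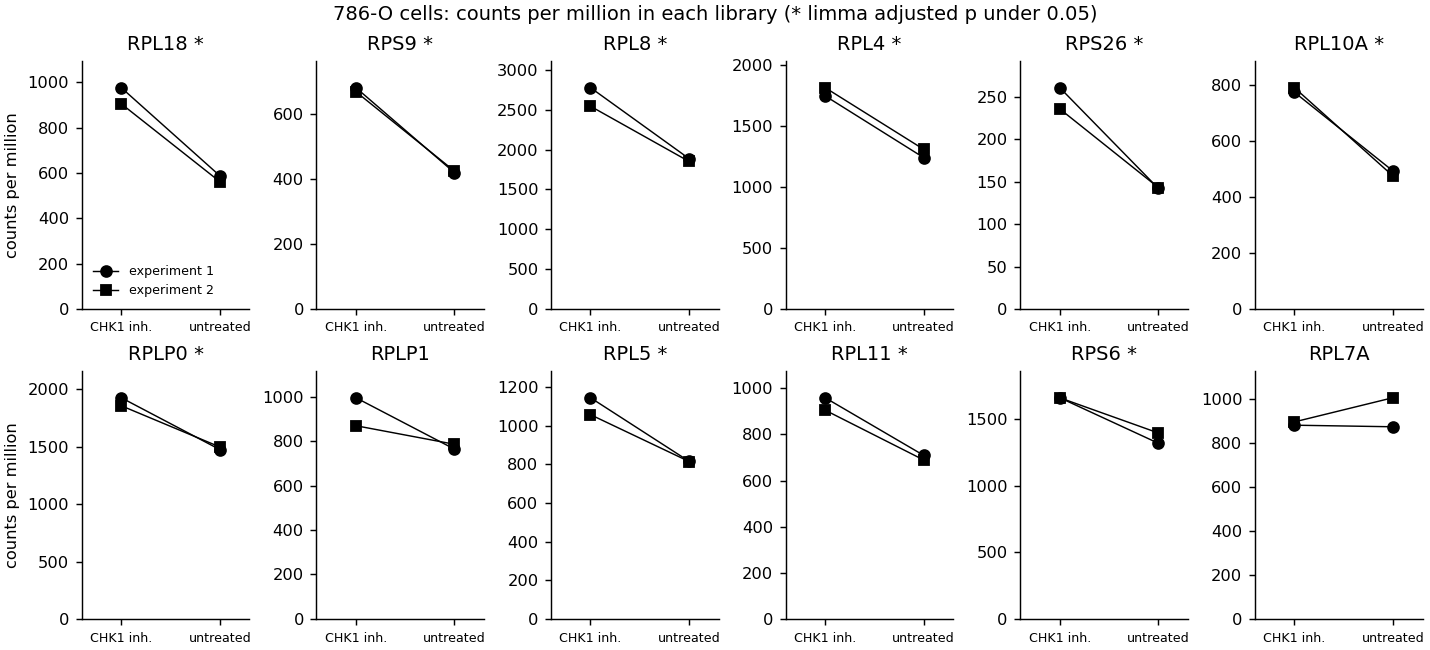
Counts scaled to a common library total (CPM) of single ribosomal protein genes in the 4 libraries of 786-O cells, the CHK1 inhibitor left of untreated, with lines joining the libraries of 1 experiment and vertical axes that start at 0. In RPS26 the treated libraries lie at 261.1 and 236.1 CPM against 142.2 and 143.2 CPM, whereas in RPL7A the groups overlap.

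Besides the scarce paralog RPL39L, the only member with a difference below 0 was RPL7A. RPL7A, a large-subunit protein whose gene hosts small nucleolar RNAs, had 882 and 897 CPM with the inhibitor and 874.8 and 1007.1 CPM without, so the groups overlapped (-0.02 ± 0.0768, limma adjusted p = 0.862). It was picked out after its values were seen. The paralogs were scarce: RPS27L had 28.5 and 26.5 CPM against 22.1 and 23.5 CPM (0.32 ± 0.0839, limma adjusted p = 0.0919), RPL3L had 2 and 3 counts against 0 and 2, and RPL39L had 1 and 0 counts against 1 and 1. A count of 0 allows up to 3 counts, or between 0.125 and 0.144 CPM by library, so no fold is given for RPL3L and RPL39L. Low values were not confined to these paralogs. Mean CPM with the inhibitor and without was 12.6 and 9.95 for RPL17, 15.5 and 10.4 for RPS10, and 2.20 and 1.75 for RPL36A.

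Ribosomal proteins outside the naming rule were mixed. FAU, which carries a ribosomal protein behind a ubiquitin-like part, rose by 0.51 (limma adjusted p = 0.0347). RACK1, the scaffold on the small subunit, differed by 0.20 (limma adjusted p = 0.0780). Of the paralogs with an L suffix, RPL7L1 and RPL22L1 rose by 0.90 and 0.78 (limma adjusted p = 0.0270 and 0.0410), whereas RPL26L1 differed by 0.47 (limma adjusted p = 0.0597) and RPL36AL by 0.02 (limma adjusted p = 0.905).

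Genes that build ribosomes had larger median differences than the ribosomal proteins themselves. Of 49 ribosome assembly genes, 31 rose (63.3%, against 7.05% of all genes) and 0 fell, with a median log2 difference of 0.85. RRP12, which exports pre-ribosomes, had 501.9 and 589.4 CPM with the inhibitor against 134.1 and 99.2 CPM without (2.29), PNO1, a small-subunit assembly factor, rose by 1.78, and UTP14A of the small-subunit processome rose by 1.76 (limma adjusted p = 0.0239, 0.0232 and 0.0232). Of 20 RNA polymerase I genes, 11 rose (55%) and 0 fell (median 0.70), led by the initiation factor RRN3 (1.79), the promoter selectivity subunit TAF1A (1.65) and the polymerase subunit POLR1E (1.40).

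Other translation genes were less uniform. Over all genes 7.05% rose and 6.16% fell. Of 19 tested genes for elongation factors and other TOP messages, a list that also holds FAU and RACK1, 7 rose (36.8%) and 1 fell (5.26%), median 0.32. The translocase EEF2 rose by 0.76, the initiation factors EIF4B and EIF3F by 0.53 and 0.51, and HNRNPA1, an RNA-binding protein, fell by 0.47 (limma adjusted p = 0.0357). Of 25 regulators 4 rose (16%) and 1 fell (4%), median 0.12. LARP4, which protects messenger RNA tails, rose by 1.03 and CNBP, which binds TOP messages, by 0.90. The mTORC1 subunit AKT1S1 rose by 0.86 and the mTORC1 brake TSC1 by 0.50, while the ribosomal S6 kinase RPS6KA3 fell by 0.55. MYC had 366.1 and 269.5 CPM with the inhibitor and 163.9 and 92.6 CPM without, a difference of 1.40 ± 0.358 that did not pass (limma adjusted p = 0.0866). Of 78 mitochondrial ribosomal protein genes, 20 rose (25.6%) and 1 fell (1.28%), median 0.30, with MRPS24 at 1.82, MRPS30 at 1.39, MRPS31 at 1.16 and MRPS27 at -0.64. HNRNPA1, TSC1, RPS6KA3, MYC and MRPS27 were named after their values were seen.

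With 2 libraries a group, the human calls rested on every library. Leaving out each library in turn leaves 1 library in an arm, which is then assumed to vary like the other arm. This left 3 members called without CHK1 inhibitor replicate 1 (2 higher, 1 lower), 2 without CHK1 inhibitor replicate 2, 0 without untreated replicate 1 and 0 without untreated replicate 2. Without either untreated library 0 genes in all were called, so these 0 counts say nothing about the members. Without either CHK1 inhibitor library 2.47% of members rose, below the 10.7% (without replicate 1) and 13.7% (without replicate 2) of all genes that did so. Estimating the variance without a trend on level called 0 members and 0 genes in all, although 69 of the 81 members had an unadjusted p under 0.05 in the fit reported above. In bulk RNA, fewer cells of a type and less RNA per cell cannot be told apart, here or in the tumours.

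In Renca tumours labelled WT, VE822 changed few ribosomal protein genes and by small amounts. By limma with Benjamini-Hochberg adjustment, 9 of the 78 members rose (11.5%) and 1 fell (1.28%), where 17.2% of all genes tested rose and 17.5% fell. In this fit the share of members called was below that of all genes in both directions, but for rises the order turned in 2 settings. Without WT VE822 replicate 1, 30.8% of members and 16.6% of all genes rose, and with quantile normalisation 21.8% and 15.2%. Of the rest of the genes at a mean rlog of at least 12 (1338 genes), 13.2% rose and 27.7% fell. The median difference was 0.06 over the members and 0.01 over all genes, and 59 members lay above 0. Of the large subunit 7 of 47 rose and 0 fell, and of the small subunit 2 of 31 rose and 1 fell.

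The largest rises belonged to the paralogs that are normally made outside the kidney. Rpl39l (chromosome 16, 10170226 to 10174911, plus strand, GRCm38) had 3.22 to 4.28 rlog (median 3.74) in WT VE822 and 2.96 to 3.36 rlog (3.20) in WT untreated libraries. The 2 groups overlapped at their edges, and the difference was 0.53 ± 0.115 (limma adjusted p = 0.00100) on a scale that shrinks differences of scarce genes such as this one. Rpl3l (chromosome 17, 24727820 to 24736143, plus strand) had 7.29 to 7.70 rlog (median 7.45) in WT VE822 and 6.75 to 7.15 rlog (6.92) in WT untreated libraries, a difference of 0.52 ± 0.167 (limma adjusted p = 0.0183). Every WT VE822 library lay above every WT untreated library for Rpl3l and for no other member, where over all genes 6.25% separated upward and 7.84% downward.

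Rpl3l is a gene of striated muscle, and muscle markers differed between these libraries. The mean of 10 skeletal muscle markers was 4.51 to 8.77 rlog in WT VE822 and 4.38 to 6.30 rlog in WT untreated libraries, 4 of the 10 rose, none was at 0, and replicates 1, 2 and 4 of WT VE822 stood at 8.77, 6.74 and 7.38. In those 3 libraries Rpl3l had 7.46, 7.44 and 7.33 rlog. Replicates 3, 5 and 6 of WT VE822 had muscle means of 4.63, 4.65 and 4.51 rlog and Rpl3l at 7.70, 7.29 and 7.56 rlog. Without the 4 libraries of highest muscle markers the Rpl3l difference was 0.57 (limma adjusted p = 0.0856). With marker list means as covariates it was 0.47 (limma adjusted p = 0.287), and the part of muscle RNA in the result was not tested further. Rps2, whose gene ends 5890 bases before that of Rpl3l on the same strand, also rose, and reads shared between neighbouring genes cannot be told apart, since no source used here states the strandedness or how reads were assigned.

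The other rises were members of the common ribosome. Rpl32, a large-subunit protein, had 13.73 to 14.21 rlog (median 13.95) in WT VE822 and 13.63 to 13.86 rlog (13.70) in WT untreated libraries (0.25 ± 0.0785, limma adjusted p = 0.0145). Rpl36, also of the large subunit, had 13.18 to 13.73 rlog (13.44) against 13.15 to 13.37 rlog (13.20), a difference of 0.25 ± 0.0814 (limma adjusted p = 0.0208). Rps2, at the messenger RNA entry of the small subunit, had 13.63 to 14.01 rlog (13.95) against 13.59 to 13.77 rlog (13.71), a difference of 0.21 ± 0.0586 (limma adjusted p = 0.00750). In Rps2 only WT VE822 replicate 1, at 13.63, fell within the untreated range, the other 5 lying at 13.93 or above. Rplp1 of the stalk (0.19), Rpl14 (0.19), Rpl27a (0.17) and the ubiquitin fusion Rps27a (0.15) rose by less, with limma adjusted p of 0.0413, 0.0117, 0.0430 and 0.0421; Rpl14 and Rpl27a are named to complete the 9.

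Rps26, the member with the largest rise in 786-O cells, was the member that fell in WT-labelled tumours. It had 12.99 to 13.58 rlog (median 13.39) in WT VE822 and 13.42 to 13.63 rlog (13.55) in WT untreated libraries, so the groups overlapped, and the difference was -0.21 ± 0.0705 (limma adjusted p = 0.0254). The drugs, species and settings differ, and no test sets these values against each other.

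The remaining members named by role did not pass the threshold in WT-labelled tumours. The differences were 0.13 for Rpl18, 0.09 for Rps9, -0.06 for Rpl8, 0.04 for Rpl4, 0.01 for Rplp0, -0.00 for Rplp2, -0.01 for Rpl5, 0.11 for Rpl11, 0.08 for Rps6 and 0.01 for Rps27l, with limma adjusted p between 0.138 for Rpl18 and 0.998 for Rplp2. The median standard error over the members was 0.0678. Rack1, Fau, Rpl22l1, Rpl36al and Rpl7l1 were not called under either label.

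**Figure D3:**
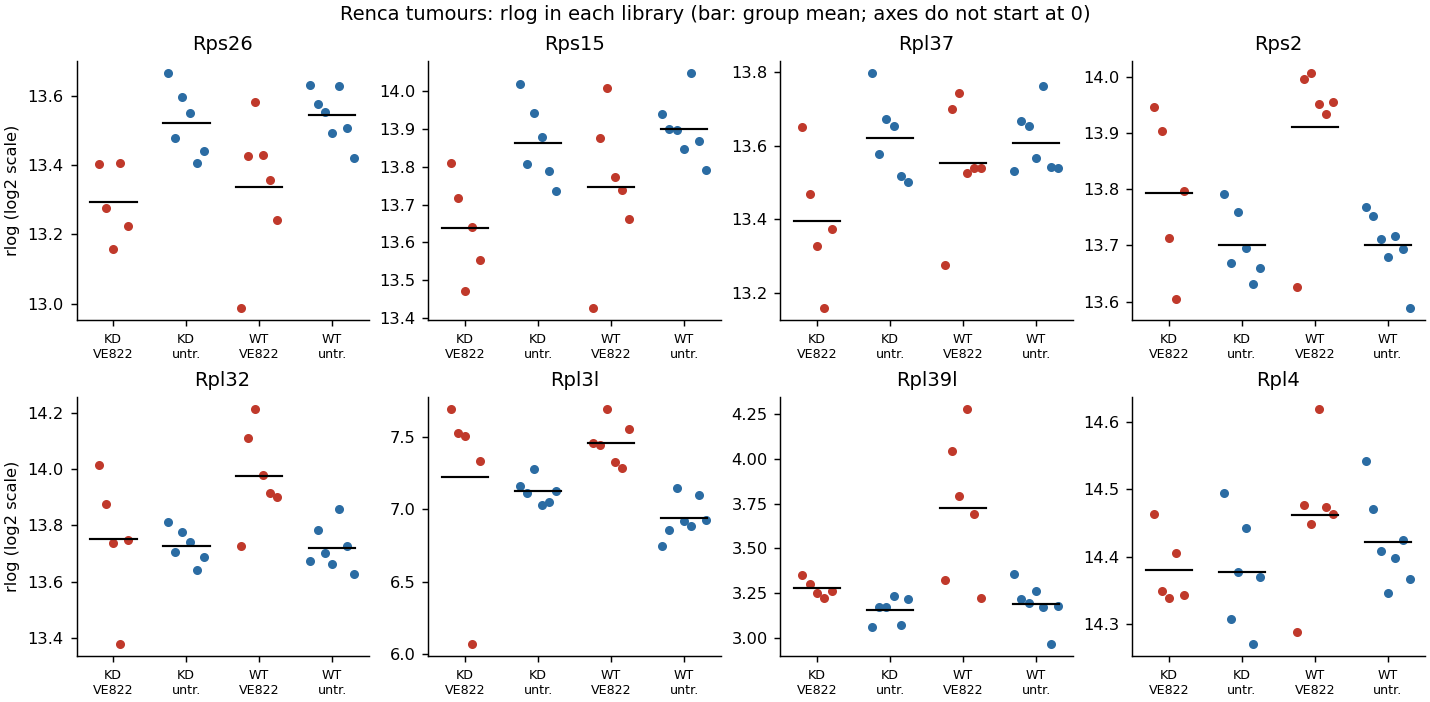
Regularised log values of single ribosomal protein genes in each Renca library, with SETD2 KD VE822, SETD2 KD untreated, WT VE822 and WT untreated from left to right, bars at the group means and axes that do not start at 0. Rpl3l separates WT VE822 (7.29 to 7.70) from WT untreated (6.75 to 7.15), and 1 SETD2 KD VE822 library lies at 6.07.

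In tumours labelled SETD2 KD, VE822 was accompanied by 0 rises and 4 falls among the 78 members (5.13%), where 10.6% of all genes tested rose and 11.6% fell. The median difference was -0.02 over the members and 0.01 over all genes, and 20 members lay above 0 and 58 below. No member separated the groups without overlap, where 5.3% of all genes did so upward and 5.95% downward. For Rps26 (chromosome 10, 128624534 to 128626747, minus strand) the SETD2 KD VE822 libraries had 13.40, 13.28, 13.16, 13.41 and 13.22 rlog and the SETD2 KD untreated libraries 13.41 to 13.67 rlog (median 13.51). All of these but replicate 4 lay below the untreated range, and Rps26 fell by 0.23 ± 0.0767 (limma adjusted p = 0.0336). No library is shared with the WT-labelled comparison, although both come from 1 fit, and the difference between the labels was -0.02 (interaction, limma adjusted p = 0.967).

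The other falls were of similar size. Rps15 (chromosome 10, 80292453 to 80294114, plus strand), a small-subunit protein near the decoding site, had 13.81, 13.72, 13.47, 13.64 and 13.55 rlog in SETD2 KD VE822 and 13.73 to 14.02 rlog (median 13.84) in SETD2 KD untreated libraries (-0.22 ± 0.0791, limma adjusted p = 0.0439). Rpl37 (chromosome 15, 5116645 to 5119140, plus strand), of the large subunit, had 13.65, 13.47, 13.33, 13.16 and 13.37 rlog against 13.50 to 13.80 rlog (13.62), a difference of -0.22 ± 0.0801 (limma adjusted p = 0.0463). Rpl21 (chromosome 5, 146832890 to 146837032, plus strand), of the large subunit, had 13.50, 13.38, 13.31, 13.32 and 13.26 rlog against 13.50 to 13.66 rlog (13.52), a difference of -0.20 ± 0.0644 (limma adjusted p = 0.0264). In these 3 genes replicate 1 was the highest SETD2 KD VE822 library and entered the untreated range.

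These falls depended on single libraries. The number of members called was 0 without SETD2 KD VE822 replicate 3 or 5 or SETD2 KD untreated replicate 1 or 3. In the refits with 0 members called, 9.1% to 10.3% of all genes fell. The number was 1 without SETD2 KD untreated replicate 4 and 2 without SETD2 KD VE822 replicate 2 or SETD2 KD untreated replicate 2. It was 3 (1 rise, 2 falls) without SETD2 KD VE822 replicate 4 and 4 without SETD2 KD untreated replicate 5 or 6. Without SETD2 KD VE822 replicate 1 it was 6, all falls (7.69% of members), where 11.6% of all genes fell. Across 11 such refits Rpl21 was called in 7, Rps26 in 5, Rps15 in 4 and Rpl37 in 3. Under the WT label the count was 24, all rises (30.8% of members), without WT VE822 replicate 1, where 16.6% of all genes rose. It was 6 (5 rises, 1 fall) without WT VE822 replicate 2, where 14.99% of all genes rose. Rpl39l, Rpl3l, Rpl32 and Rps2 were called in all 13 refits.

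Rpl39l and Rpl3l, the largest rises under the WT label, did not pass here. Rpl39l had 3.35, 3.30, 3.25, 3.22 and 3.26 rlog in SETD2 KD VE822 and 3.06 to 3.23 rlog (median 3.17) in SETD2 KD untreated libraries (0.12, limma adjusted p = 0.528). Rpl3l had 7.70, 7.53, 7.51, 6.07 and 7.33 rlog against 7.03 to 7.28 rlog (7.12), a difference of 0.10 ± 0.182 (limma adjusted p = 0.742). In Rpl3l 4 SETD2 KD VE822 libraries lay above every untreated library and replicate 4 lay below all of them, and without replicate 4 Rpl3l rose by 0.39 (limma adjusted p = 0.00210). Muscle marker means were 4.15 to 4.65 rlog in SETD2 KD VE822 and 4.41 to 5.31 rlog in SETD2 KD untreated libraries, and 0 of 10 rose. The genes Rpl18, Rps9, Rpl8 and Rpl4 differed by -0.02, 0.01, -0.14 and 0.00, with limma adjusted p of 0.874, 0.923, 0.147 and 0.979.

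**Figure D4:**
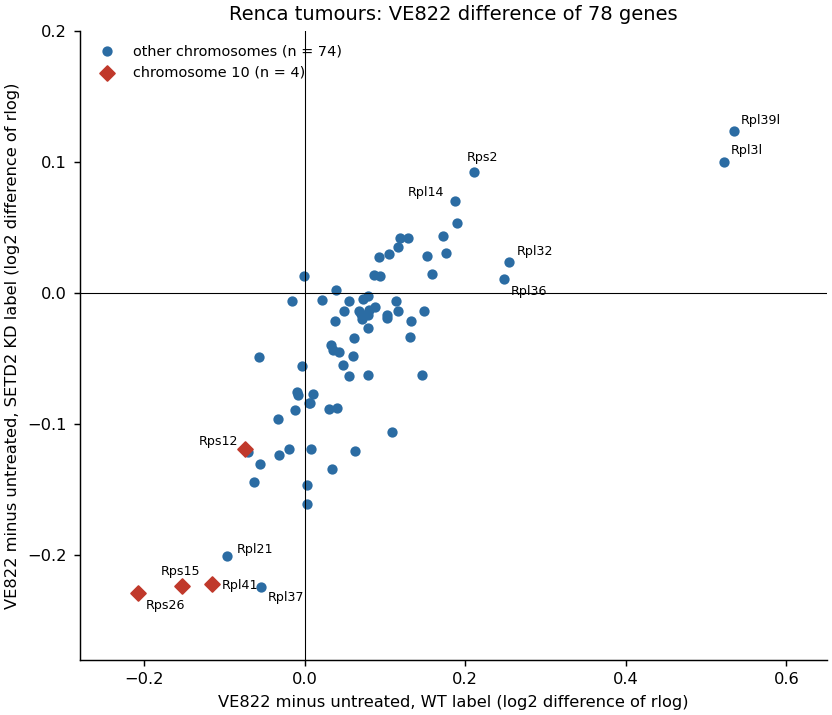
Log2 difference of rlog (VE822 minus untreated) of the 78 ribosomal protein genes tested in Renca tumours, under the WT label on the horizontal axis and the SETD2 KD label on the vertical axis and diamonds for the 4 genes on chromosome 10. Rpl39l and Rpl3l lie furthest right at 0.53 and 0.52, and Rps26 lies at -0.21 and -0.23.

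Members on chromosome 10 lay below 0, as did the shift of the chromosome as a whole. In each library this shift is the median deviation of the chromosome's genes from their own means. Only genes above a stricter level cut than that of the test entered it. Between VE822 and untreated libraries the shift of chromosome 10 was -0.19 under the SETD2 KD label and -0.26 under the WT label. The 4 members there, Rps26, Rps15, Rpl41 and Rps12, had differences of -0.23, -0.22, -0.22 and -0.12 under the SETD2 KD label and -0.21, -0.15, -0.11 and -0.07 under the WT label, all below 0. With the chromosome's median removed from each library, Rps26 stood at -0.04 (limma adjusted p = 0.730) under the SETD2 KD label and 0.05 (limma adjusted p = 0.577) under the WT label, and Rps15 at -0.04 (limma adjusted p = 0.792) under the SETD2 KD label. Rps12 stood at 0.19 (limma adjusted p = 0.0208) under the WT label, past the threshold in the opposite direction. Rpl32 on chromosome 6, where the shift was 0.13 under the WT label, stood at 0.12 (limma adjusted p = 0.149) after this step.

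No ribosomal protein gene was called between the genotype labels. Without treatment, 0 of 78 members passed limma's threshold between SETD2 KD and WT and 0 had an unadjusted p under 0.05, where 0% of all genes were called and 512 had an unadjusted p under 0.05. Differences ran from -0.10 to 0.19 with a median of -0.03. Under VE822, 0 members were called while 0.00628% of all genes rose and 0.00628% fell, and 17 members had an unadjusted p under 0.05, as did 2031 genes. When 1 library was left out that count of members ran from 4 (without SETD2 KD VE822 replicate 4) to 67 (without WT VE822 replicate 1), and it was 59 without SETD2 KD VE822 replicate 1 and 6 to 8 without SETD2 KD VE822 replicate 3 or 5 or WT VE822 replicate 2, 3 or 4. All 78 members had a mean below 0 as a difference, SETD2 KD VE822 minus WT VE822, though 0 separated the groups (0.346% of all genes did so upward and 0.264% downward), with a median of -0.13, from -0.45 for Rpl39l (limma adjusted p = 0.161) to -0.02, and Rpl36 at -0.25 (limma adjusted p = 0.255). The interaction, which asks whether VE822 differed between the labels, called 0 members and 0% of genes, with 75 of 78 members below 0, a median of -0.09 and the smallest adjusted p at 0.506 (limma, Rpl39l, -0.41). These comparisons share the VE822 libraries of both labels, and their signs are not separate evidence.

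Ribosomal protein genes moved up and down together from library to library, and the median pairwise correlation of their deviations from group means was 0.87 over 78 genes and 24 libraries (5th to 95th percentile 0.517 to 0.959). The same measure was 0.531 for 77 mitochondrial ribosomal protein genes and 0.191 for 49 assembly genes. All genes of a library share its depth, scaling and tissue makeup, so these are descriptions. The least tied members were Rpl3l (median correlation with the others 0.312), Rpl39l (0.447) and Rpl4 (0.597).

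The median deviation of the 78 members from their means over all libraries was 0.11, 0.00, -0.14, -0.17 and -0.11 in the SETD2 KD VE822 libraries. It ran from -0.11 to 0.10 in SETD2 KD untreated, from -0.21 in replicate 1 to 0.27 in replicate 3 in WT VE822, and from -0.09 to 0.11 in WT untreated libraries. The VE822 libraries of the WT label thus spanned the widest range, at both ends, and all 4 groups overlapped. The medians of large and small subunit genes lay within 0.0325 of each other in every library. Their signs differed, both lying near 0, in WT untreated replicate 3, SETD2 KD untreated replicate 4 and SETD2 KD VE822 replicate 2.

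**Figure D5:**
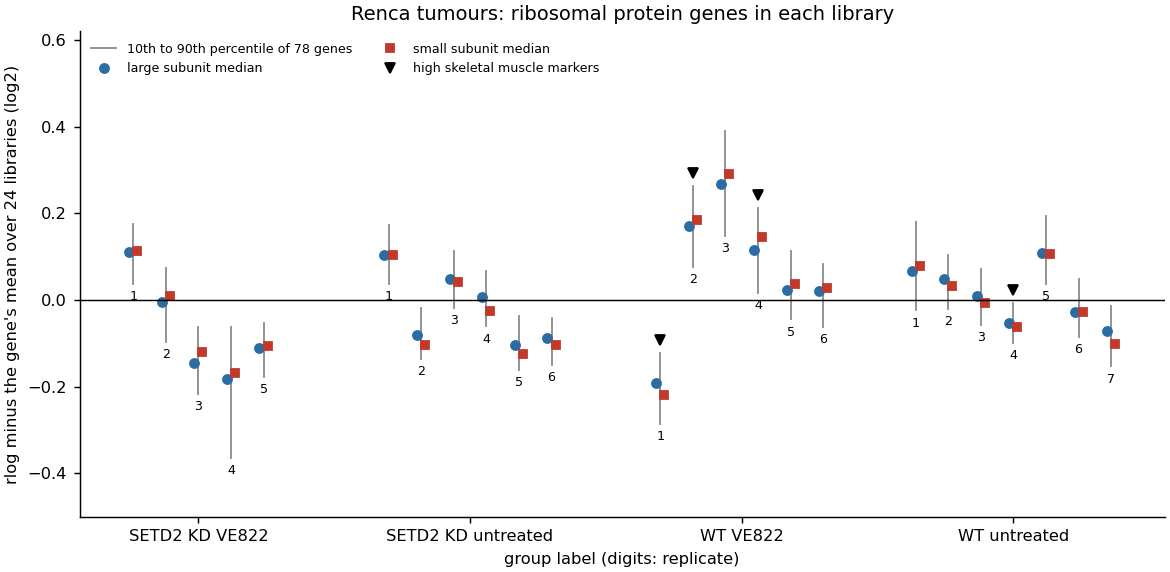
Deviation of ribosomal protein genes from their mean over 24 Renca libraries (log2), by library and group, with SETD2 KD VE822 first and WT untreated last; circles and squares are the large and small subunit medians, lines the 10th to 90th percentile of the genes, triangles mark high muscle markers and digits give the replicate. Libraries of WT VE822 run from -0.21 (replicate 1) to 0.27 (replicate 3), a wider span than in the other groups.

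RNA of cell type markers also differed with VE822, and its part in the mouse results above was not tested beyond the fit with marker means as covariates. T cell markers rose in 9 of 9 under the SETD2 KD label (means of 5.81 to 6.59 rlog in VE822 against 4.98 to 5.34 in untreated libraries) and in 8 of 9 under the WT label (5.31 to 6.62 against 4.94 to 5.60). Of 5 renal epithelial markers 3 fell and 1 rose under the SETD2 KD label and 3 fell and 0 rose under the WT label, with means of 9.30 to 9.78 rlog in VE822 against 9.76 to 9.86 in untreated SETD2 KD libraries, and 9.26 to 9.71 against 9.65 to 9.93 in WT libraries. Fibroblast markers rose in 5 of 7 under the WT label (9.24 to 12.05 rlog against 7.99 to 10.1). Under the SETD2 KD label 0 of 7 rose (8.72 to 10.18 rlog against 8.18 to 9.71). Of 8 macrophage markers 2 fell and 0 rose under each label. Adipocyte markers rose in 1 of 5 under each label, and no neutrophil or red blood cell marker was called. Of all genes, 10.6% rose and 11.6% fell under the SETD2 KD label, and 17.2% and 17.5% under the WT label. No marker of these lists was at 0. With marker means as covariates 0 members were called under either label, and 216 genes rose and 337 fell under the SETD2 KD label and 438 rose and 647 fell under the WT label.

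Genes around the ribosome were mixed in the tumours. Under the WT label, where 17.2% of all genes rose and 17.5% fell, ribosome assembly genes rose in 15 of 49 (30.6%) and fell in 4 (8.16%), median 0.05, with Bysl of small-subunit assembly at 0.30, Nhp2 of the box H/ACA particle at 0.30 and the helicase Ddx47 at 0.25, and the helicase Ddx21 on chromosome 10 among the falls at -0.24 (named after its value was seen). RNA polymerase I genes rose in 4 (20%) and fell in 5 (25%) of 20 (median -0.05), led by the terminator Ttf1 at -0.48, the polymerase subunit Cd3eap at 0.41 and the promoter factor Taf1b at -0.28. Other TOP messages rose in 1 (5%) and fell in 6 (30%) of 20 (median -0.05), with Eef2 at -0.34, Eif3l at -0.27 and Nap1l1 at -0.26, of which Eef2 and Nap1l1 lie on chromosome 10. Regulators rose in 4 (16.7%) and fell in 8 (33.3%) of 24 (median -0.09), with Myc at -0.55, the cap-binding repressor Eif4ebp2 at -0.47 and Sp1 at -0.28. Mitochondrial ribosomal protein genes rose in 12 of 77 (15.6%, near the share of all genes) and fell in 2 (2.60%), median 0.07, with Mrpl38 at 0.38, Mrpl51 at 0.34 and Mrpl19 at 0.32.

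Under the SETD2 KD label, where 10.6% of all genes rose and 11.6% fell, assembly genes rose in 1 (2.04%) and fell in 5 (10.2%) of 49, the falls including Ltv1 (-0.25), the nucleolar protein Ncl (-0.22) and Ddx21 (-0.20). RNA polymerase I genes rose in 0 and fell in 4 of 20 (20%), with the promoter factor Ubtf at -0.22, Taf1b at -0.21 and Twistnb at -0.17. Other TOP messages rose in 0 and fell in 6 of 20 (30%), led by Eif3h at -0.32, Nap1l1 at -0.27 and Naca at -0.22. Myc (-0.32) and Eif4ebp2 (-0.28) were the 2 regulators called, both falls, of 24 (8.33%). Mitochondrial ribosomal protein genes rose in 2 (2.60%) and fell in 4 (5.19%) of 77, with Mrpl38 at 0.27, Mrpl13 at -0.26 and Mrpl16 at -0.22. Among the falls named here, at least Ddx21 and Nap1l1 lie on chromosome 10, whose shift was -0.19 under this label. The list counts under both labels were taken without removing chromosome medians. In no list was a gene called between the genotype labels or in the interaction.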

How the data were processed

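RNA-seq tables were used as deposited. The human table held variance-stabilised log2 values, named so by the authors in the file header, and the mouse table held rlog values, log2 values that the authors made over 24 libraries together. FastQC, TopHat, HTSeq and DESeq2, with builds hg38 and GRCm38, stand in the submitters' processing notes. No source used here gives their order, versions, strandedness or multi-mapping rules, and reads of near-identical paralogs and pseudogenes can be split or lost.

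Groups came from the labels. Because both tables held log2 values, limma 3.58.1 in R 4.3.3 was used, as planned for that case: linear models of group means with a variance trend, 1 model for the 4 human libraries (29353 genes not constant) and 1 for the 24 mouse libraries (15916 genes with a mean rlog of at least 3), Benjamini-Hochberg over all genes of a comparison, threshold 0.05. Rose and fell mean past this threshold. The human values are steps of whole counts, which a fit of the transform over the lowest 40 steps gave back (root mean square residual 2.9e-10) and which served for CPM and an alternative test. Human depth is given per library in the report, while rlog values carry no depth. Human replicate numbers mark the 2 experiments of the design text. Deviations of same-numbered libraries correlated at 0.158 over 29353 genes, 0.511 over the 12731 with a mean of at least 5 and 0.0472 over the 81 ribosomal protein genes. Mouse replicate numbers are accession order. Mouse names and coordinates are from GENCODE vM21 (98.16% of rows matched), and start sites from RefSeq. Python 3.11.15, pandas 2.3.3, numpy 2.4.6, scipy 1.17.1 and matplotlib 3.10.9 were used, and the tests were tested on simulated data.

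The members, lists and tests were chosen with earlier results of these data known. Named genes were, in each comparison, the genes RPL18, RPS9, RPL8 and RPL4, up to 5 largest rises and falls past the threshold (else the 2 with the smallest p), the P stalk, RPL5, RPL11, RPS6, RPS27A, the paralogs, chromosome 10 members, Setd2, and up to 3 called genes per list. Alternatives were other filters, scalings, variance and weighting settings, the experiment as a block, chromosome medians removed, marker covariates and leaving out libraries. Leaving out 5 mouse libraries together was added after seeing the data. One gene outside the naming rule is not reported here.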

Additional observations from a re-analysis of the deposited data

Results flagged for a closer look

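Of 104 groups of 4 to 10 libraries tested for an outlying library with Dixon's ratio over the named ribosomal protein genes, 4 held one, and chance flags about 1 in 20 groups. Rpl21 was lowest in WT VE822 replicate 1, at 13.13 rlog against 13.47 to 13.61 in the other 5 libraries. Rps2 was lowest in the same library, at 13.63 rlog against 13.93 to 14.01. Rpl3l was lowest in SETD2 KD VE822 replicate 4, at 6.07 rlog (6.066) against 7.33 to 7.70 in the other 4 libraries. Rpl5 was highest in SETD2 KD VE822 replicate 1, at 13.48 rlog against 13.27 to 13.32. SETD2 KD VE822 replicate 4 had the lowest library weight in limma, 0.144.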

How the results depend on the processing

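The member count in 786-O cells (42) was 59 with the experiment as a replicate block, 63 with a mean of at least 5, 55 with library medians equalised, 49 with limma-voom on recovered counts, 28 with quantile normalisation (median difference 0.29 against 0.39) and 0 without a variance trend, and 0 to 3 when 1 library was left out. The share of all genes that rose moved as well, from 7.05% in the fit reported above to 9.31% with the block and 23.7% with a mean of at least 5. It was 10.6% with library medians equalised, 7.68% with limma-voom and 7.76% with quantile normalisation. The larger member counts are therefore not by themselves stronger results about the members. Apart from RPLP2 the block changed no call of a named gene. Under VE822 and the SETD2 KD label the count of 4 became 1 with no filter on low values, 1 with chromosome medians removed, 7 with library weights (2 rises, 5 falls) and 0 with marker covariates, and ran from 0 to 6 when 1 library was left out. Under VE822 and the WT label the count of 10 became 18 with quantile normalisation (17 rises, 1 fall), 0 with marker covariates and 6 without the 4 libraries of high muscle markers (6 rises), and ran from 6 to 24 when 1 library was left out. All-gene calls under the WT label split 2737 up and 2793 down, against 2422 and 3193 with quantile normalisation and 3257 and 2037 with chromosome medians removed. Without 5 libraries, a choice made after seeing the data, the counts were 5 under the SETD2 KD label and 10 under the WT label, all 10 rises. Between genotype labels and for the interaction the member count was 0 under every alternative run, including 0 to 0 when 1 library was left out. Under the WT label, removing chromosome medians turned Rps26 to 0.053 and Rps12 to 0.19. Causes were not tested. With 2 human libraries a group, precision is limited, and mouse depth is unknown.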
